A study of Saccharomyces cerevisiae with 36 samples.

Results

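The 5 flocculin genes of Saccharomyces cerevisiae, their activator FLO8 and the cell separation regulator AMN1 were followed across all groups of a study of ethanol stress. The members were taken by the open reading frame identifier: FLO1 (YAR050W), FLO5 (YHR211W), FLO9 (YAL063C), FLO10 (YKR102W), FLO11 (YIR019C), FLO8 (YER109C) and AMN1 (YBR158W). They are 7 of the 6295 open reading frames of the deposited table. FLO1 and AMN1 had a value on all 35 arrays used, FLO5 and FLO8 on 34, FLO9 on 32, FLO10 on 31 and FLO11 on 30.

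Flocculins are large cell-wall proteins whose outer domain sticks to other cells or to surfaces. Flo1, Flo5 and Flo9 bind mannose chains on neighbouring cells and gather them into flocs, Flo10 is a related adhesin, and Flo11 serves invasive growth, filaments and biofilms. Flo8 is a transcription factor that switches several of these genes on, and the S288c laboratory reference carries a nonsense allele of it, so that RefSeq lists FLO8 there as a pseudogene. Amn1 restrains exit from mitosis by binding Tem1 and is known for keeping mother and daughter cells attached after division.

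Each array compared the RNA of a pair of cultures in separate dye channels. Strain comparisons used log-phase cells in YPD, a rich medium, at 30 °C, on 3 arrays each: M22 over DBY8268, YPS163 over DBY8268, and YPS163 MATa hap1D over YPS163 MATa. DBY8268 stands for the S288c laboratory background, M22 and YPS163 are wild strains, MATa is a derivative of YPS163 of mating type a, and hap1D and msn2D are read from their names as YPS163 derivatives without HAP1 and without MSN2. Ethanol at 5% by volume was compared with unstressed cells of the same strain after 30 min, on 3 arrays each for DBY8268, M22, YPS163, MATa, hap1D and msn2D. In DBY8268, M22 and YPS163 single arrays were added at 15, 45 and 60 min, and array 1 at 30 min belongs to that time course. The labels give MATa for the MATa and hap1D strains only, and no ploidy for any strain.

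All values are log2 ratios, so 1 unit is a doubling, and levels of different genes cannot be compared. HAP1 lay at -3.47 ± 0.61 (SD, n = 2) in hap1D over MATa after those ratios had been turned, and MSN2 had no value on any of the 3 msn2D arrays. Array 3 of MATa in ethanol was left out, because its correlation with arrays 1 and 2 was 0.164 as deposited and 0.747 after a shift of its values up by 1 position. In YPS163, array 1 at 30 min stood apart from arrays 2 and 3 for FLO1, FLO5, FLO9 and FLO11. FLO1, FLO5 and FLO9 are close in sequence, the probes were not examined here, and how far each spot reads its own gene was not tested. In ratios between strains, less transcript and a diverged or missing copy of the gene cannot be told apart.

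AMN1 was the member with the most even difference between the wild strains and the laboratory strain before any stress. In M22 over DBY8268 the 3 arrays read -1.11, -1.15 and -1.12, and in YPS163 over DBY8268 they read -1.31, -0.84 and -0.95. All 6 arrays lay below 0, and the ranges of the 2 wild strains overlapped. In RNA of whole cultures, fewer cells that express a gene and less RNA per cell cannot be told apart. AMN1 was 2.18-fold lower in M22 (log2 ratio -1.13 ± 0.16, standard error, limma adjusted p = 1.77e-05) and 2.05-fold lower in YPS163 (-1.03 ± 0.16, adjusted p = 5.99e-05). The wild strains did not differ from each other beyond the error: M22 minus YPS163 was -0.09, with a 95% interval from -0.57 to 0.38. In a fit of the log-phase arrays of YPS163 alone, the AMN1 difference of -1.03 did not pass, with an adjusted p of 0.0648.

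The genes that release daughter cells were lower in the same comparisons. Of 14 genes listed for daughter separation, 13 could be tested in each wild strain. In M22, 8 were lower, 0 were higher and 5 did not pass, with a median of -0.92 against -0.03 over all frames tested. In YPS163, 7 were lower, 0 higher and 6 did not pass, with a median of -0.62 against 0.00. Among all frames tested, 17.7% were lower in M22 and 14.3% in YPS163.

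DSE2, which encodes a daughter-specific glucanase-like wall protein, was lower by 1.51 in M22 and by 1.53 in YPS163 on the log2 scale. DSE1, a daughter-specific gene, stood at -1.39 in M22 and at -1.73 in YPS163. CTS1, the chitinase that cuts the septum, stood at -1.36 and -1.39. Adjusted p-values of these 3 genes in limma lay between 2.42e-08 and 2e-06. Without array 2 of M22 over DBY8268, 5 of the 12 genes then testable were lower, and without array 2 of YPS163 over DBY8268, 4 of 13. In the fit of the YPS163 log-phase arrays alone 2 of 13 passed.

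Of 12 genes listed for mitotic exit, the network that contains Tem1, 11 could be tested in either wild strain. In limma 0 passed, with medians of 0.04 in M22 and 0.09 in YPS163, where 30.0% and 22.9% of all frames were called. In hap1D over MATa 0 of the 14 daughter separation genes passed, with a median of -0.08. Only 2.94% of all frames were called there, so this count does not set the list apart from other genes.

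**Figure D1:**
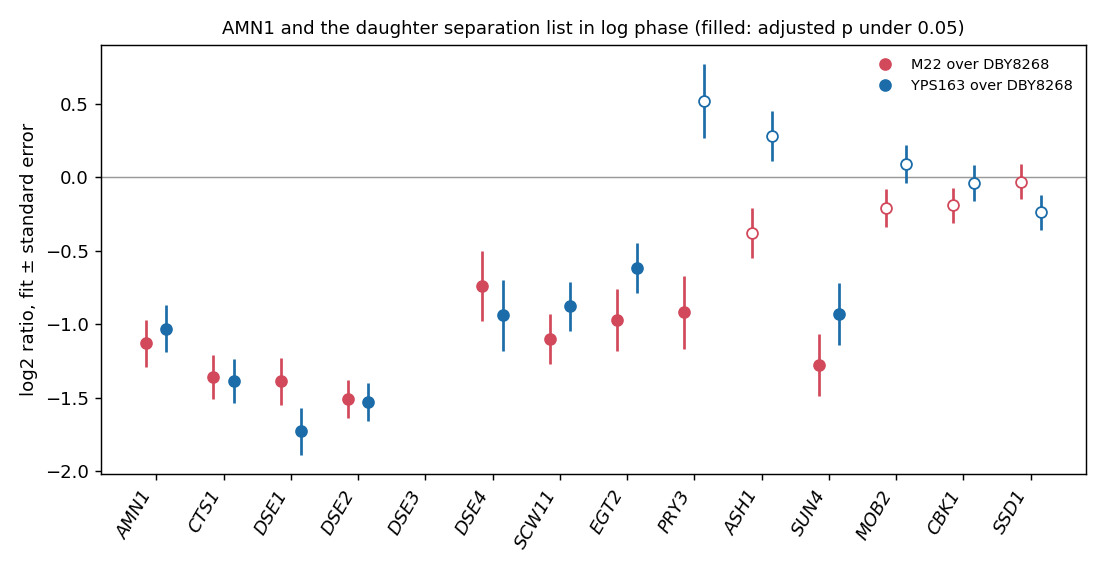
Log2 ratios in log phase for AMN1 and 13 of the 14 genes of the daughter separation list, with M22 over DBY8268 in red and YPS163 over DBY8268 in blue; points are fitted means, bars their standard errors, and filled points passed an adjusted p of 0.05. AMN1, CTS1, DSE1 and DSE2 lie near or below -1 in both strains, and DSE3 has too few values to be tested.

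Among the flocculins in log phase, FLO9 and FLO1 were lower in M22. FLO9 read -1.01 and -1.42 on the 2 M22 arrays with a value, and -0.29 and 0.13 on the 2 YPS163 arrays with a value, without overlap. FLO9 was 2.32-fold lower in M22 (-1.22 ± 0.19, adjusted p = 7.56e-05), and M22 minus YPS163 was -1.14 ± 0.27 (adjusted p = 0.0156). FLO9 could not be tested without array 2 or array 3 of M22, and in a fit of the log-phase arrays of the 2 wild strains alone its difference between them did not pass (adjusted p = 0.214).

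FLO1 read -0.14, -0.84 and -0.72 in M22 and -0.82, -0.41 and -0.34 in YPS163. All 6 values were below 0 and the strains overlapped. The M22 value of -0.57 ± 0.21 passed narrowly in limma (adjusted p = 0.0435), and it was -0.43 without array 2 (adjusted p = 0.266) and -0.49 without array 3 (adjusted p = 0.2). The YPS163 value of -0.52 had a 95% interval from -0.95 to -0.09 and an adjusted p of 0.0741.

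FLO5 read 0.04, -0.50 and -0.84 in M22 and -0.06, 0.31 and 0.09 in YPS163. FLO10 read 1.29, 0.71 and -0.18 in M22, and 1.16 and 0.04 on the 2 arrays of YPS163 with a value. FLO11 read 0.16, -0.32 and -1.02 in M22 and 0.93, 0.58 and -0.24 in YPS163. The arrays of FLO10 and FLO11 spread over more than 1 log2 unit within each wild strain and covered both signs in M22, and none of these genes passed. Their 95% intervals in M22 were -0.94 to 0.07 for FLO5, 0.09 to 1.12 for FLO10 and -1.08 to 0.29 for FLO11. Without array 3 of M22, FLO10 was 1.00 (adjusted p = 0.00956).

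FLO8 read -0.03 and 0.05 on the 2 M22 arrays with a value and -0.08, 0.66 and -0.49 in YPS163. The fitted values were 0.01 with an interval of -0.43 to 0.45 and 0.03 with an interval of -0.33 to 0.39. These ratios measure the transcript and do not show which allele a strain carries.

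In all, 3 of the 7 members were called in M22 over DBY8268, where 30.0% of all frames were called, and 1 of 7 in YPS163 over DBY8268, where 22.9% were. For M22 minus YPS163 in log phase it was 1 of 7, FLO9, beside 6.42% of all frames. The frames next to the members along the chromosome were called in 2 of 21 tests in M22 and in 5 of 26 in YPS163. TDA8, YAL064W, GDH3 and BDH2, the frames next to FLO9, had too few values to be tested in M22. In YPS163 they stood at 0.10, 0.29, 0.20 and 0.17 and did not pass. The M22 count therefore says nothing about the surroundings of FLO9. ICS2, next to AMN1, was low in YPS163 (-1.60, adjusted p = 0.00847), while in M22 it had too few values to be tested.

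Loss of HAP1, a haem-responsive transcription factor, gave 0 called members in log phase in limma, where 2.94% of all frames were called. At an unadjusted p under 0.05, 4 members would have passed, beside 579 of the 6059 frames tested. FLO10 read 0.85, 0.91 and 0.84, FLO11 read 1.47, 1.03 and 0.60, and AMN1 read 0.15, 0.31 and 1.07. All 9 of these values lay above 0. The adjusted p-values were 0.0752 for FLO10, 0.129 for FLO11 and 0.127 for AMN1. FLO10 passed without any 1 of 4 log-phase arrays of M22 or YPS163 (adjusted p from 0.0339 to 0.0462). It also passed with each array centred (adjusted p = 0.0491) and in a fit of the hap1D log-phase arrays alone (adjusted p = 0.0442). FLO11 passed without array 1 of YPS163 in ethanol (adjusted p = 0.0219). FLO1 read -0.47, -0.53 and -0.40, FLO5 read -0.50, -0.54 and -0.45, and both missed the threshold (adjusted p = 0.434 and 0.541). With the arrays scaled to equal spread, FLO1, FLO5, FLO10, FLO11 and AMN1 passed in limma (adjusted p from 1.35e-05 to 0.000188). That setting also called more of all frames. FLO9 read -0.10, 0.16 and -0.18 and FLO8 read 0.12, 0.04 and -0.03, on both sides of 0. DAN4, which encodes a mannoprotein of cells without oxygen, was 4.16 higher in hap1D on the log2 scale (adjusted p = 5.06e-06) and was the single gene called among the 10 other adhesins and FLO-like frames.

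**Figure D2:**
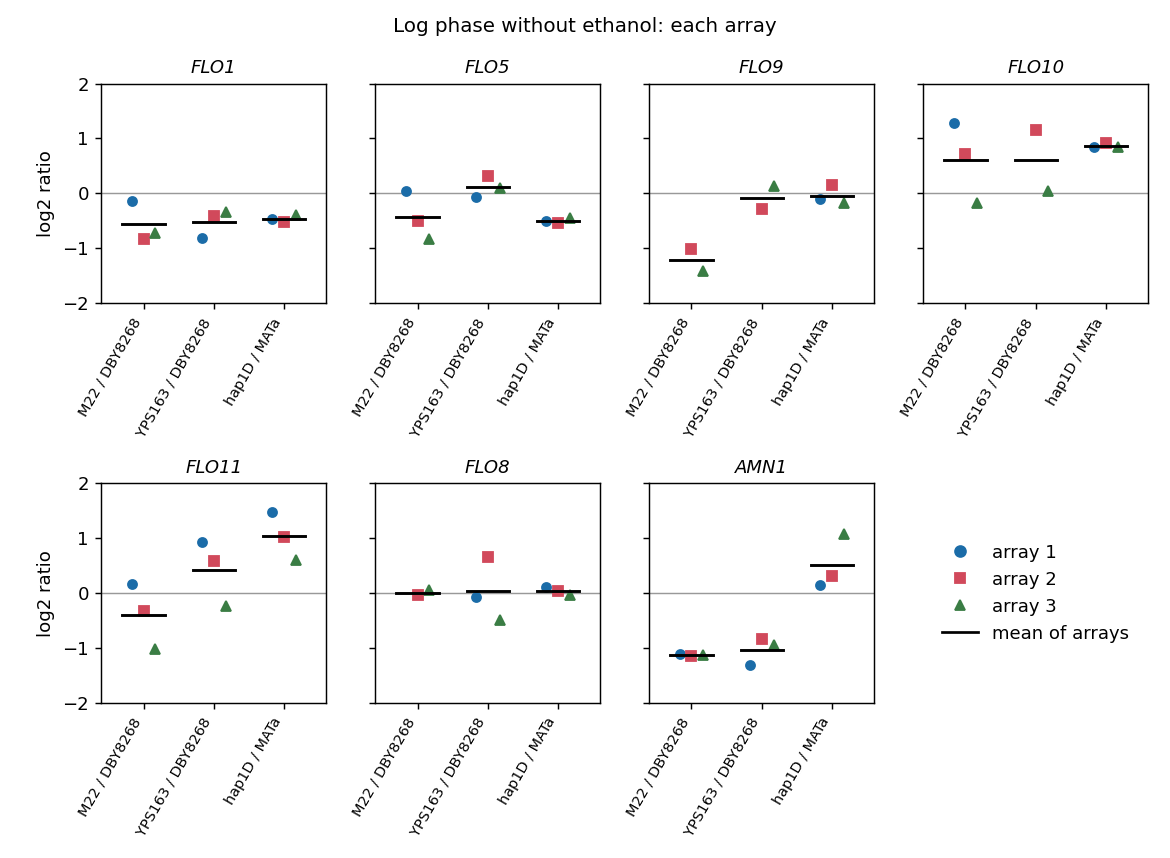
Log2 ratios of the 7 members in log phase without ethanol, 1 panel a gene, with arrays 1, 2 and 3 as circles, squares and triangles and their mean as a bar. AMN1 lies between -0.84 and -1.31 on all 6 arrays of M22 and YPS163, and FLO10 and FLO11 lie above 0 on all hap1D arrays.

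Among DBY8268, M22 and YPS163, the laboratory strain DBY8268 alone had passing rises in ethanol for all of FLO1, FLO5 and FLO9. In DBY8268, FLO5 read 1.40, 1.65 and 2.29, FLO1 read 1.20, 1.19 and 1.71, and FLO9 read 0.66, 0.96 and 1.02. All 9 values were above 0. FLO5 rose 3.43-fold (log2 1.78 ± 0.24, adjusted p = 3.42e-06), FLO1 rose 2.58-fold (1.37 ± 0.21, adjusted p = 9.67e-06) and FLO9 rose 1.84-fold (0.88 ± 0.15, adjusted p = 8.23e-05). These 3 calls held in every alternative setting that was run.

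In M22 the fitted rises of the same genes were smaller, though for FLO9 the difference from DBY8268 did not pass. FLO1 read 0.03, 0.42 and 0.69, FLO5 read -0.23, 0.32 and 0.53, and FLO9 read 0.17, 0.53 and 1.03. The FLO1 and FLO5 values of M22 lay below every DBY8268 array, while FLO9 overlapped. FLO9 rose (0.58 ± 0.15, adjusted p = 0.00341), though without array 3 it was 0.35 (adjusted p = 0.0833). FLO1 at 0.38 and FLO5 at 0.21 did not pass, with intervals of -0.05 to 0.81 and -0.30 to 0.71. With the replicate number as a block on the ethanol arrays of DBY8268, M22 and YPS163, FLO1 in M22 passed at the same value (adjusted p = 0.0444).

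In YPS163, FLO1 read 0.05, 1.00 and 1.28, FLO5 read -0.39, 0.68 and 0.35, and FLO9 read -0.32, 0.50 and 0.33. Array 1 was the lowest for each of these genes. FLO1 rose (0.78 ± 0.21, adjusted p = 0.00286), and without array 3 it was 0.53 (adjusted p = 0.0693). FLO5 at 0.21 and FLO9 at 0.17 did not pass, with intervals of -0.29 to 0.72 and -0.16 to 0.50. Without array 1, FLO9 reached 0.41 (adjusted p = 0.0395).

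The differences between these responses were tested directly. The FLO5 response was 2.98-fold smaller in M22 than in DBY8268 (difference of log2 ratios -1.57 ± 0.34, adjusted p = 0.00455) and 2.96-fold smaller in YPS163 (-1.57 ± 0.34, adjusted p = 0.00388). The FLO1 response was smaller in M22 by a difference of -0.99 ± 0.29 (adjusted p = 0.0305), and the FLO9 response was smaller in YPS163 by -0.71 ± 0.22 (adjusted p = 0.0345). Both FLO5 differences passed whichever array was left out and fell short with the arrays scaled to equal spread, at -1.14 (adjusted p = 0.0972) and -1.10 (adjusted p = 0.0858). The FLO1 difference was lost without DBY8268 array 1, 2 or 3 or without M22 array 1 or 2, at values from -1.07 to -0.81 (adjusted p from 0.0506 to 0.102). Without array 1 of YPS163 the FLO9 difference was -0.47 (adjusted p = 0.151), and it was also lost without DBY8268 array 2 (adjusted p = 0.0996) or array 3 (adjusted p = 0.0966). For FLO9 in M22 the difference from DBY8268 was -0.30 (interval -0.76 to 0.16) and did not pass in limma (adjusted p = 0.429). For FLO1 in YPS163 it was -0.59 (interval -1.20 to 0.02) and did not pass either (adjusted p = 0.191).

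That made 2 of 7 members called for M22 minus DBY8268 beside 12.1% of all frames, and 2 of 7 for YPS163 minus DBY8268 beside 15.9%. For YPS163 minus M22, 0 of 7 members passed in limma, beside 5.96% of all frames. At an unadjusted p under 0.05 it was also 0 of 7, beside 911 of the 5254 frames tested. The FLO5 responses of the 2 wild strains differed by 0.01, with an interval of -0.71 to 0.72.

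FLO10 and FLO11 did not pass in these 3 strains with all 26 arrays in the fit. FLO10 read 0.05, 0.87 and 0.70 in DBY8268, 0.12, 0.72 and -0.40 in M22, and 0.66 and 0.57 on the 2 YPS163 arrays with a value. FLO11 read 0.57, 1.28 and 0.29 in DBY8268, -0.24 and 0.35 on the 2 M22 arrays with a value, and -1.04, 1.21 and 0.75 in YPS163. The strains overlapped for both genes. The DBY8268 values of 0.54 for FLO10 and 0.71 for FLO11 had adjusted p-values of 0.0666 and 0.0669. With the replicate number as a block on the ethanol arrays of these 3 strains alone, FLO10 in DBY8268 passed (adjusted p = 0.0438). It also passed with a dye term (0.58, adjusted p = 0.0447) and in 5 fits that left out 1 array (adjusted p from 0.0313 to 0.0472). FLO11 in DBY8268 passed with a dye term (0.77, adjusted p = 0.0467), in a fit of the DBY8268 arrays alone (adjusted p = 0.032), and without YPS163 array 1 (adjusted p = 0.0163) or array 2 (adjusted p = 0.0466). FLO11 in YPS163 was 0.31 with an interval of -0.38 to 0.99, and 0.98 without array 1 (adjusted p = 0.00885).

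AMN1 fell in all 3 strains. It read -0.69, -0.58 and -0.12 in DBY8268, -0.92, -0.43 and -0.19 in M22, and -0.81, -0.41 and -0.15 in YPS163. All 9 values were below 0, and array 3 was the least negative in each strain. The fitted changes were -0.46 ± 0.16 (adjusted p = 0.0186), -0.51 ± 0.16 (adjusted p = 0.00953) and -0.46 ± 0.16 (adjusted p = 0.0198). Without array 1 of the strain in question they were -0.35, -0.31 and -0.28 and did not pass (adjusted p = 0.146, 0.161 and 0.22). In DBY8268 the call was also lost without array 2 (adjusted p = 0.104), and in YPS163 likewise (adjusted p = 0.053). The AMN1 responses of M22 and YPS163 differed from that of DBY8268 by -0.05 (interval -0.53 to 0.43) and 0.01 (interval -0.47 to 0.48).

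FLO8 read -0.36, 0.64 and 0.00 in DBY8268, 0.05, 0.27 and -0.20 in M22, and -0.03, 0.16 and 0.02 in YPS163. The values lay on both sides of 0 in each strain. The fitted values of 0.09, 0.04 and 0.05 did not pass.

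Counted over the members, 4 of 7 were called in DBY8268 beside 59.6% of all frames, 2 of 7 in M22 beside 62.0%, and 2 of 7 in YPS163 beside 60.3%. Ethanol therefore changed most frames of the table in these strains. The share of members called was close to that of all frames in DBY8268, and below it in M22 and YPS163.

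**Figure D3:**
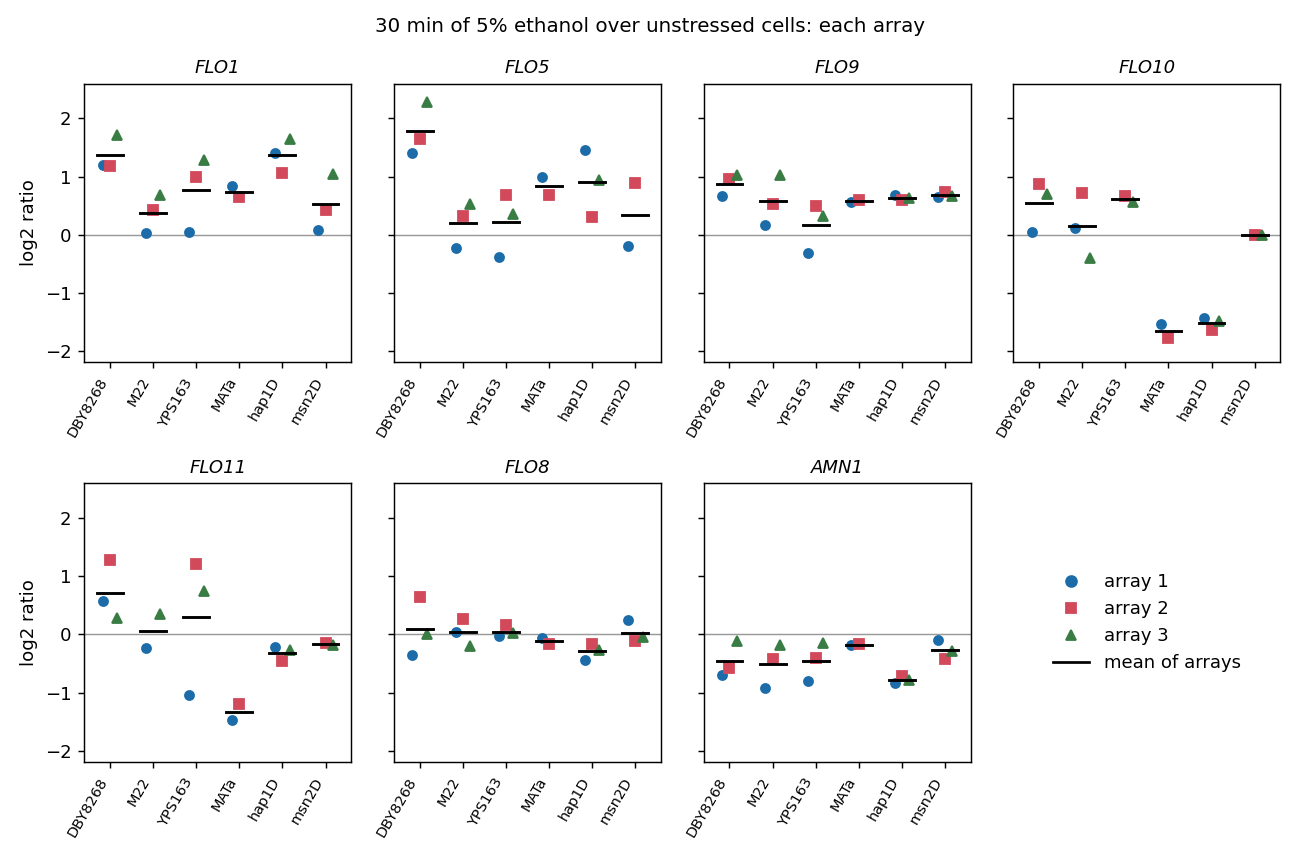
Log2 ratios after 30 min in 5% ethanol over unstressed cells for the 7 members in 6 strains, with arrays 1, 2 and 3 as circles, squares and triangles and their mean as a bar (MATa has arrays 1 and 2). FLO5 in DBY8268 lies between 1.40 and 2.29, above every array of M22 and YPS163, and FLO10 lies between -1.43 and -1.78 in MATa and hap1D.

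The levels reached in ethanol combine the log-phase ratio with both responses. FLO5 was 4.02-fold lower in M22 than in DBY8268 (log2 ratio -2.01 ± 0.42, adjusted p = 0.00281), FLO1 was 2.93-fold lower (-1.55 ± 0.36, adjusted p = 0.00554), FLO9 was 2.86-fold lower (-1.52 ± 0.29, adjusted p = 0.00151) and AMN1 was 2.26-fold lower (-1.18 ± 0.28, adjusted p = 0.00702). In YPS163, FLO5 was lower by 1.45, FLO1 by 1.11 and AMN1 by 1.03 on the log2 scale (adjusted p = 0.0246, 0.0407 and 0.0167). FLO9 in YPS163 was -0.79 with an interval of -1.40 to -0.18 and an adjusted p of 0.0756. Without array 1 of YPS163 in ethanol these 3 calls were lost, at -1.15 for FLO5 (adjusted p = 0.0799), -0.75 for FLO1 (adjusted p = 0.134) and -0.85 for AMN1 (adjusted p = 0.0558). They were also lost without log-phase array 1 of YPS163 and without ethanol array 3 of DBY8268, and FLO1 was lost without ethanol array 1 or 2 of DBY8268. Thus 4 of 7 members were called in ethanol for M22 over DBY8268 beside 13.2% of all frames, and 3 of 7 for YPS163 over DBY8268 beside 15.2%. These values reuse the arrays of the log-phase and ethanol comparisons and add no arrays of their own.

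The time course showed how the members moved around 30 min, with 1 array per time and therefore no test. AMN1 in DBY8268 read -1.04, -0.69, -0.34 and -0.17 at 15, 30, 45 and 60 min. In M22 it read -0.84, -0.92, -0.51 and -0.20, and in YPS163 -0.99, -0.81, -0.59 and -0.40. In each strain the lowest value came at 15 or 30 min and the value closest to 0 at 60 min. The median of the daughter separation list went from -0.55 at 15 min to -0.06 at 60 min in DBY8268, from -0.50 to -0.10 in M22 and from -0.95 to -0.09 in YPS163.

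FLO5 in DBY8268 read 0.95, 1.40, 1.11 and 0.99 across these times and FLO1 read 0.85, 1.20, 0.86 and 0.90. Both were above 0 throughout and highest at 30 min. In M22, FLO5 read -0.09, -0.23, -0.39 and -0.76 and FLO1 read 0.02, 0.03, -0.26 and -0.34, so both ended below 0. In YPS163, FLO5 read -0.69, -0.39, -1.13 and -1.23 and FLO1 read 0.15, 0.05, -0.09 and -1.40, which is lower than in DBY8268 at every time.

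FLO9 in DBY8268 read 0.25, 0.66, 0.42 and -0.06, while in YPS163 it read -0.01, -0.32, -0.73 and -1.48. In M22 it read -0.46, 0.17 and -0.13 at 15, 30 and 60 min. At 60 min the strains stood closest between DBY8268 and M22, with YPS163 lowest.

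FLO11 read -1.57, -1.04 and -1.65 at 15, 30 and 45 min in the YPS163 time course, against 0.27, 0.57 and 0.76 in DBY8268 and 0.47, -0.24 and -0.28 in M22. FLO10 in YPS163 read -0.55, -1.27 and -1.05 at 15, 45 and 60 min, where DBY8268 read 0.36, 0.43 and 0.53, and M22 read -0.55 and -1.0 at 45 and 60 min. The YPS163 time course therefore lay below 0 for both genes, whereas arrays 2 and 3 of YPS163 at 30 min lay above 0. FLO8 stayed between -0.36 and 0.39 on every time-course array.

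**Figure D4:**
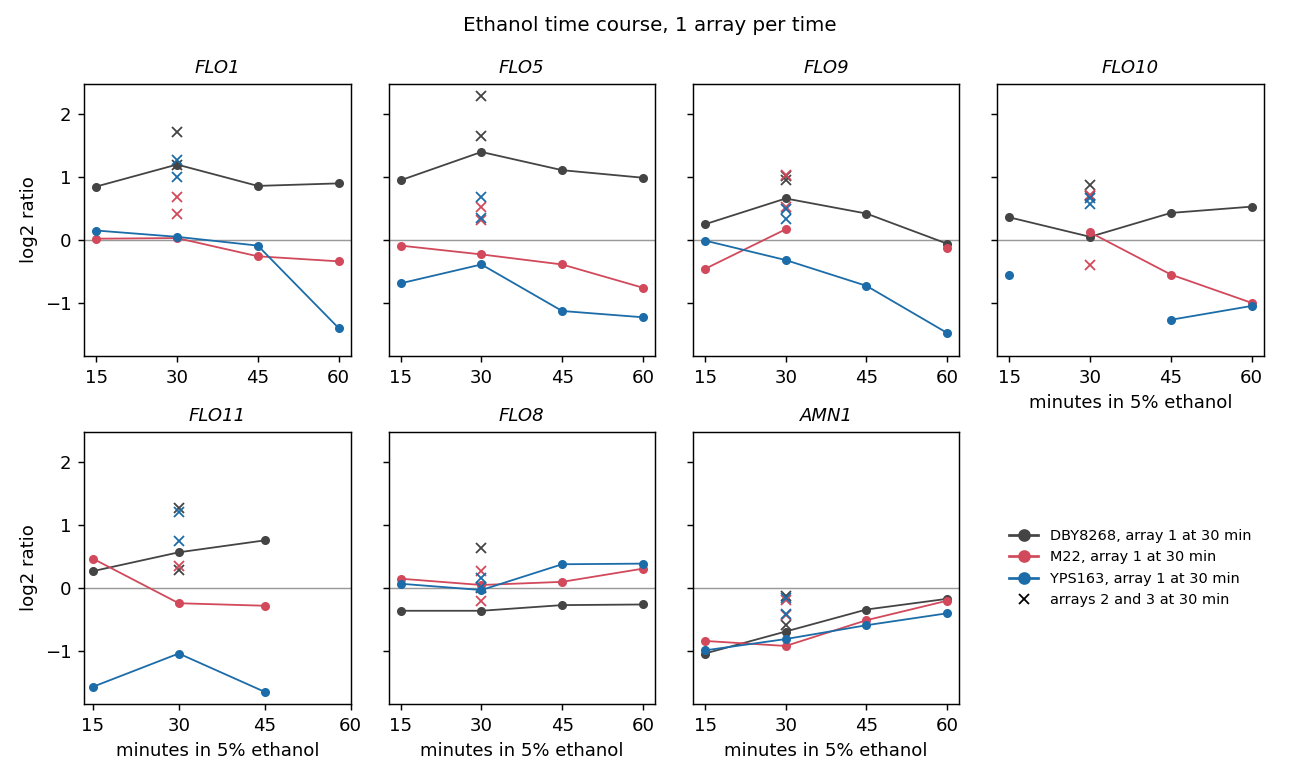
Log2 ratios of the 7 members against minutes in 5% ethanol, with lines for the time-course arrays of DBY8268 (grey), M22 (red) and YPS163 (blue) and crosses for arrays 2 and 3 at 30 min. AMN1 returns toward 0 by 60 min in all 3 strains, and the YPS163 crosses for FLO1, FLO5 and FLO11 lie above its line at 30 min.

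In the MATa derivative of YPS163 and its hap1D mutant the mannose-binding flocculins rose while FLO10 fell. FLO10 read -1.53 and -1.78 in MATa and -1.43, -1.64 and -1.49 in hap1D. All 5 values lay below those of every DBY8268, M22 and YPS163 array at 30 min. FLO10 fell 3.15-fold in MATa (-1.66 ± 0.30, adjusted p = 0.000192) and 2.87-fold in hap1D (-1.52 ± 0.24, adjusted p = 5.35e-05).

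FLO11 read -1.47 and -1.20 in MATa and -0.22, -0.46 and -0.26 in hap1D, without overlap. It fell in MATa (-1.33 ± 0.40, adjusted p = 0.00903) and stood at -0.31 with an interval of -1.0 to 0.37 in hap1D. The difference between them, 1.02 for hap1D minus MATa, had an interval of -0.06 to 2.10 and an adjusted p of 0.717.

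FLO1 read 0.83 and 0.65 in MATa and 1.41, 1.07 and 1.64 in hap1D. FLO5 read 0.99 and 0.69 in MATa and 1.45, 0.31 and 0.94 in hap1D. FLO9 read 0.56 and 0.59 in MATa and 0.69, 0.59 and 0.63 in hap1D. All 15 values were above 0, and only FLO1 kept the groups apart. In MATa the fitted rises were 0.74 for FLO1, 0.84 for FLO5 and 0.57 for FLO9 (adjusted p = 0.0189, 0.0234 and 0.0165), and in hap1D 1.37, 0.90 and 0.64 (adjusted p = 1.28e-05, 0.00394 and 0.00193). Without array 1 of hap1D, FLO5 was 0.62 (adjusted p = 0.0834).

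AMN1 read -0.84, -0.71 and -0.79 in hap1D and -0.18 and -0.17 in MATa. The groups did not overlap. It fell in hap1D (-0.78 ± 0.16, adjusted p = 0.000405), whereas in MATa it was -0.17 with an interval of -0.59 to 0.24. The difference of -0.60 had an interval of -1.14 to -0.07 and did not pass (adjusted p = 0.593). FLO8 read -0.06 and -0.16 in MATa and -0.44, -0.16 and -0.27 in hap1D, all below 0 and not past the threshold.

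The count was 5 of 7 members in MATa beside 51.9% of all frames, and 5 of 7 in hap1D beside 54.3%. For hap1D minus MATa, 0 of 7 members passed in limma, beside 0.0926% of all frames. An unadjusted p under 0.05 was reached by 1 of 7 members, beside 393 of the 5397 frames tested.

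These MATa values rest on 2 arrays. On array 3, FLO10 read 1.48 as deposited and 0.13 when moved up by 1 position, and FLO11 had no value as deposited and read 0.81 when moved. With the moved array FLO11 was -0.62 (adjusted p = 0.194), and with the array as deposited FLO10 was -0.61 (adjusted p = 0.262). Without array 1 or array 2 of MATa, 1 array was left, assumed to vary like the other groups, and FLO1, FLO5, FLO9 and FLO11 did not pass, while FLO10 did.

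In msn2D, which lacks the general stress factor Msn2, FLO10 read -0.01 and 0.00 on the 2 arrays with a value and FLO11 read -0.14 and -0.18. Both stayed near 0 and above arrays 1 and 2 of MATa, but below array 3 of MATa wherever that array gave a value. The FLO10 response differed from that of MATa by 1.65 ± 0.42 (adjusted p = 0.0234), and the FLO11 difference of 1.18 had an interval of -0.01 to 2.36 and an adjusted p of 0.218. With array 3 of MATa moved the FLO10 difference was 1.05 (adjusted p = 0.21), with it as deposited 0.60 (adjusted p = 0.677), and without MATa array 1 or array 2 it was 1.77 (adjusted p = 0.13) or 1.52 (adjusted p = 0.0932).

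FLO9 read 0.65, 0.73 and 0.67 in msn2D, an even rise that overlapped hap1D (0.68 ± 0.15, adjusted p = 0.00144). FLO1 read 0.08, 0.43 and 1.05 and passed narrowly (0.52 ± 0.21, adjusted p = 0.0477), and the call was lost in 17 of 26 fits that left out 1 array, with 0.26 (adjusted p = 0.438) without array 3. FLO5 read -0.20 and 0.89 on the 2 arrays with a value, AMN1 read -0.10, -0.42 and -0.28, and FLO8 read 0.25, -0.11 and -0.05. None of the last 3 genes passed. The count was 2 of 7 in msn2D beside 43.4% of all frames, and 1 of 7, FLO10, for msn2D minus MATa beside 8.21%.

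MATa differed from its YPS163 parent in the FLO10 response by -2.27 ± 0.42 (adjusted p = 0.013), and 1 of 7 members was called beside 0.740% of all frames. The FLO11 difference of -1.64 had an interval of -2.72 to -0.56 and an adjusted p of 0.25, and it was -2.31 without array 1 of YPS163 (adjusted p = 0.00943). With array 3 of MATa moved, the FLO10 difference was -1.68 (adjusted p = 0.112), and with it as deposited -1.23 (adjusted p = 0.323). Without MATa array 1 or array 2 it was -2.40 (adjusted p = 0.0536) or -2.15 (adjusted p = 0.212). The call was also lost in a fit of the MATa and YPS163 ethanol arrays alone (adjusted p = 0.144) and with the arrays scaled to equal spread (-1.69, adjusted p = 0.805). The YPS163 value rests on arrays 2 and 3, since array 1 had no FLO10 value, and the FLO10 values of its time course at 15, 45 and 60 min lay below 0 as in MATa.

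The a-specific genes, which cells of mating type a express, were among the genes that fell in the strains where FLO10 fell, and they also moved elsewhere. In MATa 6 of 6 fell (median -1.29) and in hap1D 5 of 6 fell and 0 rose (median -1.06). These are 100% and 83.3% called, beside 51.9% and 54.3% of all frames called in either direction. In msn2D 1 of 6 fell and 0 rose (median -0.22), which is 16.7% beside 43.4%. In DBY8268, where FLO10 did not pass, 4 of 6 rose and 0 fell, which is 66.7% beside 59.6%. In M22 1 of 3 fell and in YPS163 2 of 3 rose, with the other genes short of values. These are 33.3% beside 62.0% of all frames and 66.7% beside 60.3%. STE2, the receptor for alpha-factor, stood at -1.81 in MATa and -1.77 in hap1D. Of the 9 haploid-specific genes, 2 fell, 0 rose and 7 did not pass in MATa, and the same counts were found in hap1D. Of those that could be tested, 2 of 8 rose in msn2D and 3 of 7 in DBY8268. In M22 3 rose and 1 fell of 5, and in YPS163 3 of 3 rose. The haploid-specific shares called were 22.2% in MATa and hap1D, 25% in msn2D, 42.9% in DBY8268, 80% in M22 and 100% in YPS163. All frames gave 51.9%, 54.3%, 43.4%, 59.6%, 62.0% and 60.3% from MATa to YPS163. Of the 4 alpha-specific genes, 1 of 3 tested fell in MATa, 1 of 3 rose in hap1D and 1 of 4 fell in msn2D. In DBY8268 1 of 2 rose, in M22 1 of 3 rose, and in YPS163 0 of 2 passed. The alpha-specific shares called were 33.3%, 33.3%, 25%, 50%, 33.3% and 0% in that order, beside the same shares of all frames. The part of mating type and of cell type in the FLO10 result was not tested, and in msn2D minus MATa the loss of MSN2 and any difference in mating type cannot be told apart, since the msn2D label gives none.

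**Figure D5:**
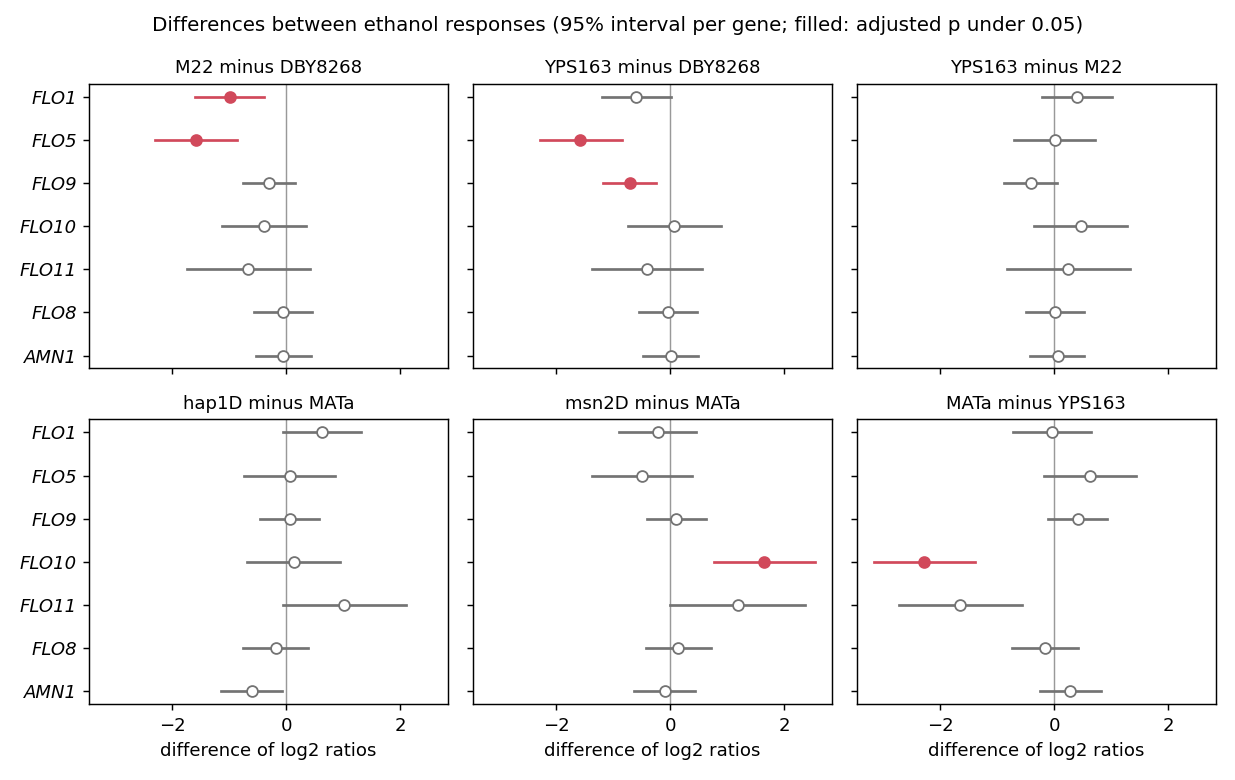
Differences between ethanol responses at 30 min for the 7 members, as the difference of log2 ratios with its 95% interval for each gene, and filled red points where the adjusted p was under 0.05. FLO5 stands at -1.57 for both wild strains against DBY8268, and FLO10 stands at 1.65 for msn2D minus MATa and -2.27 for MATa minus YPS163.

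Known regulators of the FLO genes were described from a list of 23. TEC1, a factor that acts with Ste12 at FLO11, read -1.75 and -2.26 in MATa and -2.32, -1.93 and -1.84 in hap1D, against 1.35, 1.53 and 1.71 in YPS163 and 0.01, 0.97 and -0.49 in msn2D. It was low in the strains where FLO10 was low, and it rose in YPS163 (1.53 ± 0.26, adjusted p = 3.45e-05). FLO11 did not follow it in each strain: FLO11 was -0.31 in hap1D and 0.31 in YPS163 and did not pass in either. The TEC1 value of MATa rests on arrays 1 and 2, and array 3, which was left out, read 0.76 as deposited. The TEC1 difference was -3.54 ± 0.41 for MATa minus YPS163 (adjusted p = 4.37e-05) and 2.17 ± 0.41 for msn2D minus MATa (adjusted p = 0.00241).

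MGA1, a factor related to heat shock factors and known from filamentous growth, was 3.13 higher in M22 than in DBY8268 in log phase (adjusted p = 1.9e-06). In ethanol MGA1 fell by 2.33 on the log2 scale in YPS163 (adjusted p = 2.34e-05), and it fell in M22 as well (-1.35, adjusted p = 0.00429). The difference, YPS163 minus M22, was -0.98 and did not pass (adjusted p = 0.367). MGA1 rose in hap1D (0.96, adjusted p = 0.0391) and did not pass in DBY8268, MATa or msn2D. PHD1, another factor of filamentous growth, was lower in log phase in YPS163 (-0.92, adjusted p = 0.00197) and in M22 (-0.58, adjusted p = 0.0352). It rose by 2.05 in DBY8268 in ethanol (adjusted p = 3.15e-08).

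Over the whole list, 3 regulators were higher, 4 lower and 14 did not pass in M22 in log phase, and in YPS163 these counts were 0, 3 and 19. That is 33.3% and 13.6% called, beside 30.0% and 22.9% of all frames. In ethanol 7 rose and 4 fell of 21 in DBY8268, 5 rose and 9 fell of 22 in M22, 5 rose and 6 fell of 21 in YPS163, 5 rose and 11 fell of 23 in MATa, 7 rose and 9 fell of 23 in hap1D, and 5 rose and 4 fell of 23 in msn2D. The shares called in ethanol were 52.4%, 63.6%, 52.4%, 69.6%, 69.6% and 39.1% in that order, beside 59.6%, 62.0%, 60.3%, 51.9%, 54.3% and 43.4% of all frames. The list medians in ethanol ran from -0.40 in MATa to 0.03 in DBY8268, beside -0.04 and 0.02 over all frames.

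The daughter separation list in ethanol had 2 genes that rose and 8 that fell of 13 in DBY8268, 2 and 5 of 13 in M22, 1 and 4 of 13 in YPS163, 1 and 4 of 10 in MATa, 2 and 6 of 14 in hap1D, and 3 and 3 of 14 in msn2D. The shares called were 76.9% in DBY8268, 53.8% in M22, 38.5% in YPS163, 50% in MATa, 57.1% in hap1D and 42.9% in msn2D. Beside the shares of all frames, only the DBY8268 share lay above by more than 10 percentage points, and the YPS163 share lay below by more than 10. SUN4, a wall protein of septation, fell most in DBY8268 (-1.17), M22 (-1.29), YPS163 (-1.79), hap1D (-2.13) and msn2D (-0.77) among the genes of the list that passed. SSD1, an RNA-binding protein, rose in M22 (1.08), YPS163 (0.53), MATa (0.94), hap1D (0.95) and msn2D (0.49). The mitotic exit list had 1 gene that rose and 7 that fell of 11 in DBY8268, with NET1, an inhibitor of Cdc14, at -1.26. In msn2D 1 rose, 1 fell and 10 did not pass. These are 72.7% called in DBY8268 beside 59.6% of all frames, and 16.7% in msn2D beside 43.4%. The mitotic exit shares of the other strains were 72.7% in M22 beside 62.0% and 54.5% in YPS163 beside 60.3%. In MATa 63.6% were called beside 51.9%, and in hap1D 66.7% beside 54.3%.

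The FLO-like frame YAR061W, which lies beside FLO1, did not move with it: it fell in M22 (-0.98, adjusted p = 0.000383), YPS163 (-1.42, adjusted p = 8.62e-05), MATa (-0.93, adjusted p = 0.00429), hap1D (-0.67, adjusted p = 0.00847) and msn2D (-0.52, adjusted p = 0.0442). In DBY8268 it was -0.37 and did not pass (adjusted p = 0.201). FLO1 rose in DBY8268, YPS163, MATa, hap1D and msn2D, and in M22 it did not pass.

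Over all groups FLO8 was the flattest member: its 18 fitted values ran from -0.29 to 0.14 and 0 passed in limma or at an unadjusted p under 0.05. The frames whose ratios followed the members most closely were found by Pearson correlation across arrays, as a description with no test, since arrays of a strain share cultures and groups. For AMN1 these were LYS1 (r = 0.779, 35 arrays), YFR018C (r = 0.697, 31 arrays) and BAT2 (r = 0.683, 34 arrays) among 5046 frames. For FLO11 they were YNL058C (r = 0.724), YKR045C (r = 0.705) and SCW4 (r = 0.667), each over 30 arrays, among 3062 frames. For FLO8 they were PCL10 (r = 0.647, 34 arrays), IAI11 (r = 0.612, 34 arrays) and RAD53 (r = 0.592, 31 arrays) among 5007 frames.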

How the data were processed

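The authors deposited 1 table of ratios, taken as log2 from their values, since the labels name neither a unit nor a base. How spots were normalised or background-corrected is not given in sources used here. The 36 arrays held 4981 to 6093 values each, with medians from -0.08 to 0.17, and the number of arrays sets the precision, since no intensities were read. Array 2 of each triplicate had exchanged dyes. Ratios were read as ethanol over unstressed and wild strain over DBY8268, and hap1D ratios in log phase were turned. The direction is likely but not certain: among 90 frames under -4 in M22, 27.8% of values were missing on that strain's ethanol arrays and 3.70% on those of DBY8268. For 92 frames of YPS163 the shares were 33.3% and 6.88%. On log-phase arrays, 13.7% were missing for 39 frames over 3.5 in ethanol and 2.42% for 133 under -2.

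Gene names came from RefSeq's R64 annotation, which matched 5830 frames and left 465 unmatched. In limma 3.58.1 (R 4.3.3) a mean per group was fitted to 26 arrays in 9 groups, and p-values of 18 contrasts were adjusted by Benjamini-Hochberg over all frames with at least 2 values in each group. Calls are adjusted p-values under 0.05. Errors of fitted values are standard errors. The fit was tested on simulated data. The series description calls the 30 min and log-phase arrays biological triplicates. Same-numbered ethanol arrays of DBY8268, M22 and YPS163 deviated together (r from 0.237 to 0.596), which pairs them. Those of MATa and hap1D did so as well (r from 0.467 to 0.626), and no block was fitted to these groups alone. Such pairing did not hold across all groups.

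The members, lists, tests and alternatives were chosen with earlier results of these data known, and the lists are no independent evidence. Named are all members, at most 3 genes per list and contrast with the largest passing values, and the 3 frames most like FLO11, FLO8 and AMN1. ICS2, the TEC1 values of YPS163 and msn2D and the YAR061W values of hap1D and DBY8268 fall outside that rule and were chosen after their values were seen. So do the frames next to FLO9 and the PHD1 value of M22 in log phase. The MGA1 values of M22 and hap1D in ethanol were also added after they were seen. Values of some listed genes are not reported here.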

Additional observations from a re-analysis of the deposited data

Results flagged for a closer look

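The direct tests of a difference between groups under the same ethanol contrast passed for 4 members. FLO5 responded less in M22 and in YPS163 than in DBY8268, by -1.57 in each case as a difference of log2 ratios, and in each case the 3 arrays of the wild strain lay below the 3 of DBY8268. FLO1 responded less in M22 than in DBY8268, by -0.99. FLO9 responded less in YPS163 than in DBY8268, by -0.71. FLO10 differed by 1.65 for msn2D minus MATa and by -2.27 for MATa minus YPS163, where each value rests on 2 arrays a group and on leaving out array 3 of MATa. The causes of these differences were not tested.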

How the results depend on the processing

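Of 126 tests on members, 38 passed, 16 of them in every fit with 1 array left out and 12 in every alternative. By family, 5 passed in log phase, 20 as ethanol responses, 6 as differences between responses and 7 as levels in ethanol. With the arrays scaled to equal spread, log phase gave 13, responses 11 and differences 0. Requiring a value on all arrays gave 3 in log phase. Fits of only the groups compared gave 3 in log phase and 4 as levels in ethanol. Array 3 of MATa as deposited gave 2 differences. With 1 array left out the counts ran from 2 to 7 in log phase, 15 to 22 for responses, 4 to 6 for differences and 4 to 8 for levels. With the replicate number as a block in all groups they were 7, 20, 6 and 8, and FLO1 in YPS163 in log phase (adjusted p = 0.0409), AMN1 in hap1D in log phase (0.0468) and FLO9 in YPS163 in ethanol (0.037) passed as well. On the ethanol arrays of DBY8268, M22 and YPS163 alone, chosen after seeing the data, the block gave 10 responses and 4 differences, against 6 and 2 without it. Centring and the dye term moved no family of counts by over 1.5 times. Over all frames, scaling moved M22 minus DBY8268 from 661 to 104 calls, YPS163 minus DBY8268 from 843 to 148, M22 over DBY8268 in log phase from 1532 to 2331 and hap1D in log phase from 178 to 1657. Fits of only the groups compared moved YPS163 in log phase from 1266 to 191 and MATa minus YPS163 from 36 to 1. Array 3 of MATa as deposited moved msn2D minus MATa from 443 to 143. The cause was not tested. The number of arrays limits all of these, and missing values limit FLO9, FLO10 and FLO11.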
